A study of Mus musculus with 19 samples.

Results

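The conjugating enzymes are the second line of xenobiotic metabolism: once cytochrome P450 enzymes have oxidized a polycyclic aromatic hydrocarbon, these enzymes attach a water-soluble group to the product so that it can be exported. Glutathione S-transferases (the Gsta, Gstm, Gstp, Gstt, Gsto, Gstk, Gstz and membrane-bound Mgst families) add glutathione, UDP-glucuronosyltransferases (Ugt1, Ugt2 and Ugt3) add glucuronic acid, and sulfotransferases (Sult) add sulfate. The diol epoxides of these hydrocarbons are known substrates of the Gstp and Gstm enzymes, and several Gst and Ugt1 genes are textbook targets of the aryl hydrocarbon receptor (AHR, which such hydrocarbons bind) or of NRF2, the factor that responds to electrophiles. Members were taken by gene symbol, with no use of measured values, although earlier results of these data were known when they were chosen. They comprised 80 of the 55681 probes on the array, and 58 of the 20660 genes it names, in 12 families.

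Lung RNA came from 18 adult male MutaMouse animals, a transgenic strain made for mutation assays, aged about 12 weeks. All were dosed by oral gavage on 28 consecutive days and killed 72 h after the last dose. The vehicle group D0 received olive oil (5 mice), and D1 (4 mice), D2 (5 mice) and D3 (4 mice) received a defined mixture of 8 polycyclic aromatic hydrocarbons in a daily amount equivalent to 15, 30 and 60 mg of benzo[a]pyrene per kg of body weight. Each of 19 2-colour Agilent arrays compared the lung RNA of a mouse (red) with a reference RNA, made from mouse cell lines and shared by all arrays (green). Values are log2 ratios of lung over reference, so that 0 means equal signal, 1 means a doubling, and a difference between groups is a log2 fold change.

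Between 54.5 and 64.7% of spots per array carried the scanner software's mark of a red signal well above background, and no spot was saturated. The 3 slides each held all 4 dose groups, but dyes were not swapped and each group kept a fixed array column, so that the ratios cannot tell column from dose apart. The pair of arrays hybridized with D3 mouse 35 was averaged, and mouse 23 is labelled D2 although its number falls among those of D1. The group sizes given in the methods also point to D1 for it, and with it in D1 again 0 members were called at any dose. Markers of alveolar type 2 cells (7 of 7 genes tested) stood at a mean log2 ratio of 5.23 to 6.06 in every mouse, as did club cell markers at 4.83 to 6.61 (6 of 8 genes tested), while 2 of 7 hepatocyte markers passed the filter. The mean of 6 alveolar macrophage markers lay lower in D2 (3.57 to 4.20) and D3 (3.75 to 4.16) than in D0 (4.28 to 4.61), with D1 between 3.99 and 4.64. Of these genes 1 was called lower at D2 (Siglecf) and 1 at D3 (Krt79), against 0.626% and 2.43% of all tested probes either way. The part of such cells in the members' values was not tested. In whole lung, fewer cells of a type and less RNA per cell cannot be told apart.

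Detection divided the families sharply. The filter kept a probe if at least 4 mice of 1 group showed it well above background in red, and 46 of the 80 probes, for 31 genes, passed (57.5%, against 55.7% of all probes). Every probe of the Gsta (4), Gstm (15), Gstp (5), Gsto (2), Gstk (1), Gstz (1) and Mgst (5) families was tested, and 3 of 4 Gstt probes were. No Ugt2 probe (0 of 10) and no Ugt3 probe (0 of 3) was tested, and 6 of 25 Sult probes were, for 5 of 20 genes. A total of 43 probes were well above background in all 18 mice, and 22 probes, among them all probes of 16 genes, were not above background in any mouse.

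**Figure D1:**
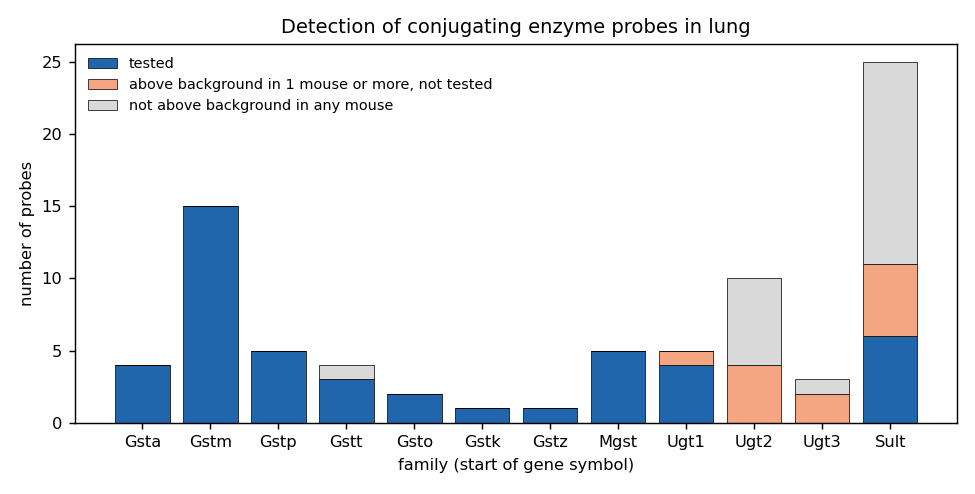
Number of probes (vertical axis) in each of the 12 families (horizontal axis), stacked by detection in lung: tested, above background in 1 mouse or more but not tested, and not above background in any mouse. All 15 Gstm probes are tested, none of the 10 Ugt2 probes is, and 14 of the 25 Sult probes were not above background in any mouse.

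Sult1b1, Sult1c1, Sult2a2, Sult2a3, Sult2a4, Sult2a6, Sult2a7, Sult3a1, Sult3a2 and Sult6b1 were not well above background in any of the 18 mice, nor were Ugt2a3, Ugt2b5, Ugt2b36, Ugt2b37, Ugt2b38 or Gstt4. A few genes were near the limit of detection. Sult1c2 was above background in 3 of 5 D0, 3 of 4 D1, 3 of 5 D2 and 1 of 4 D3 mice, and Sult2a8 in 2, 3, 3 and 3. Sult1e1, the estrogen sulfotransferase, was above background in 1 D0 and 1 D1 mouse, and Ugt3a2, by 1 of its 2 probes, in 2 mice of each group. Ugt2a1, the olfactory epithelial form, was above background in 2 D1, 2 D2 and 1 D3 mice and in no D0 mouse, which was too few for a test. Sult2a1, Sult6b2, Ugt2b1, Ugt2b34, Ugt2b35 and Ugt3a1 were each above background in 1 of 18 mice. For Ugt2b34 the reference RNA was above background on the arrays of all 18 mice, so that the probe itself gave signal. Gsta1 and Ugt1a7c had no probe that could be matched to their symbols by accession and were not analysed here.

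In vehicle lung, several detected enzymes stood far above the cell line reference. Sult1a1 (NM_133670), the phenol sulfotransferase, had log2 ratios of 5.29, 4.86, 5.43, 5.22 and 5.51 in the 5 D0 mice. Gsta3 (NM_001077353), an alpha-class transferase that conjugates aflatoxin epoxide, stood at 4.90, 5.13, 5.02, 5.05 and 4.80. Both were therefore many times higher in each vehicle lung than in the reference, and for Sult1a1 the ratio rests on a reference signal that was above background in 10 of 18 mice. Gstk1, the mitochondrial and peroxisomal kappa-class enzyme, had a D0 mean of 3.43 ± 0.22 (SD, n = 5), and the microsomal enzyme Mgst1 one of 3.37 ± 0.28 (SD, n = 5). Gstt1, a theta-class enzyme acting on small halogenated molecules, followed at 2.53 ± 0.08 (SD, n = 5).

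The mu class was mostly above the reference too, with D0 means of 2.17 ± 0.26 for Gstm6, 2.08 ± 0.24 for Gstm2, 1.83 ± 0.20 for Gstm1, 1.63 ± 0.21 for Gstm4, 1.59 ± 0.13 for Gstm3 and 0.52 ± 0.12 for Gstm7 (SD, n = 5). Gstm5, in contrast, lay below it at -1.53 ± 0.15 (SD, n = 5). The pi class, which is the main class in many epithelia, lay closer to the reference, at -0.39 ± 0.04 for Gstp1, 0.51 ± 0.19 for Gstp2 and 1.14 ± 0.39 for Gstp3 (SD, n = 5). The omega enzyme Gsto2 was the lowest tested member at -1.89 ± 0.18, followed by Gstm5 and by Ugt1a10 at -1.32 ± 0.16 (SD, n = 5). The reference signal was above background in 6 of 18 mice for Gstm7 and in 10 for Gstp3, so that their ratios, like that of Sult1a1, rest on a reference that was often not measured well. For some genes the level depended on the probe. The dimmer Gstp2 probe lay below the reference at -0.27, and the dimmer Gstm6 probes stood at 1.33 and 0.78. The Mgst1 probes, in contrast, stood at 3.37 and 3.35. All these values order each gene's lung signal against its own reference signal and say nothing of which enzyme is most abundant.

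**Figure D2:**
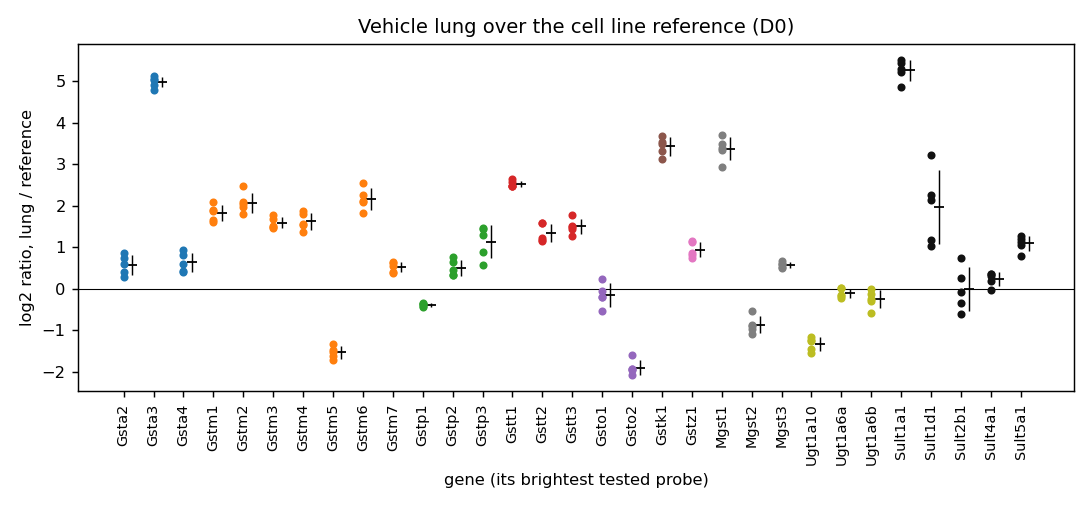
Log2 ratio of lung over reference RNA (vertical axis) in the 5 D0 mice for the brightest tested probe of each of 31 genes (horizontal axis), with points for mice and a bar for the mean and SD, coloured by family. Sult1a1 and Gsta3 are near 5, while Gsto2, Gstm5 and Ugt1a10 are below -1.

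The first question was which of these enzymes responded to the mixture at each dose. No member was called at any dose: 0 of 46 probes passed limma's adjusted p of at most 0.05 with a change of at least 1.5-fold at D1, D2 or D3. The share called by the same rule among all 31004 tested probes was 1.06% (D1), 0.626% (D2) and 2.43% (D3). An unadjusted p under 0.05 was reached by 6, 2 and 4 members at the rising doses, against 19.8%, 14.7% and 26.2% of all probes. The 95% intervals of the difference lay wholly within 1.5-fold for 43 members at D1, 43 at D2 and 40 at D3 (93.5%, 93.5% and 87.0%, against 88.6%, 92.1% and 85.3% of all probes), and within 2-fold for 45 of 46 at each dose. The exception at 2-fold was Sult1d1, whose values varied most from mouse to mouse. No background was subtracted, so that the ratios of dim probes can understate a change in RNA. Ugt1a10 had a mean log2 red signal of 6.81 and the dimmer Gstm7 probe 6.9, against 6.3 for Sult1b1, which was not detected. For such dim probes the intervals bound the measured ratio and not the RNA change.

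The D1, D2 and D3 medians of the members' log2 fold changes were 0.08, -0.04 and -0.006, against 0.007, -0.004 and -0.002 over all tested probes. The difference was positive for 34, 15 and 22 of the 46 probes, against 51.7%, 48.9% and 49.5% of all tested probes, so that more members lay on the higher side at D1 and more on the lower side at D2. These counts depend on the scaling. With each array centred on its median in place of loess, the median of all probes itself moved to 0.17, 0.12 and 0.06, and 45, 40 and 37 members were positive, of which 38, 28 and 28 lay above the median of all probes.

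**Figure D3:**
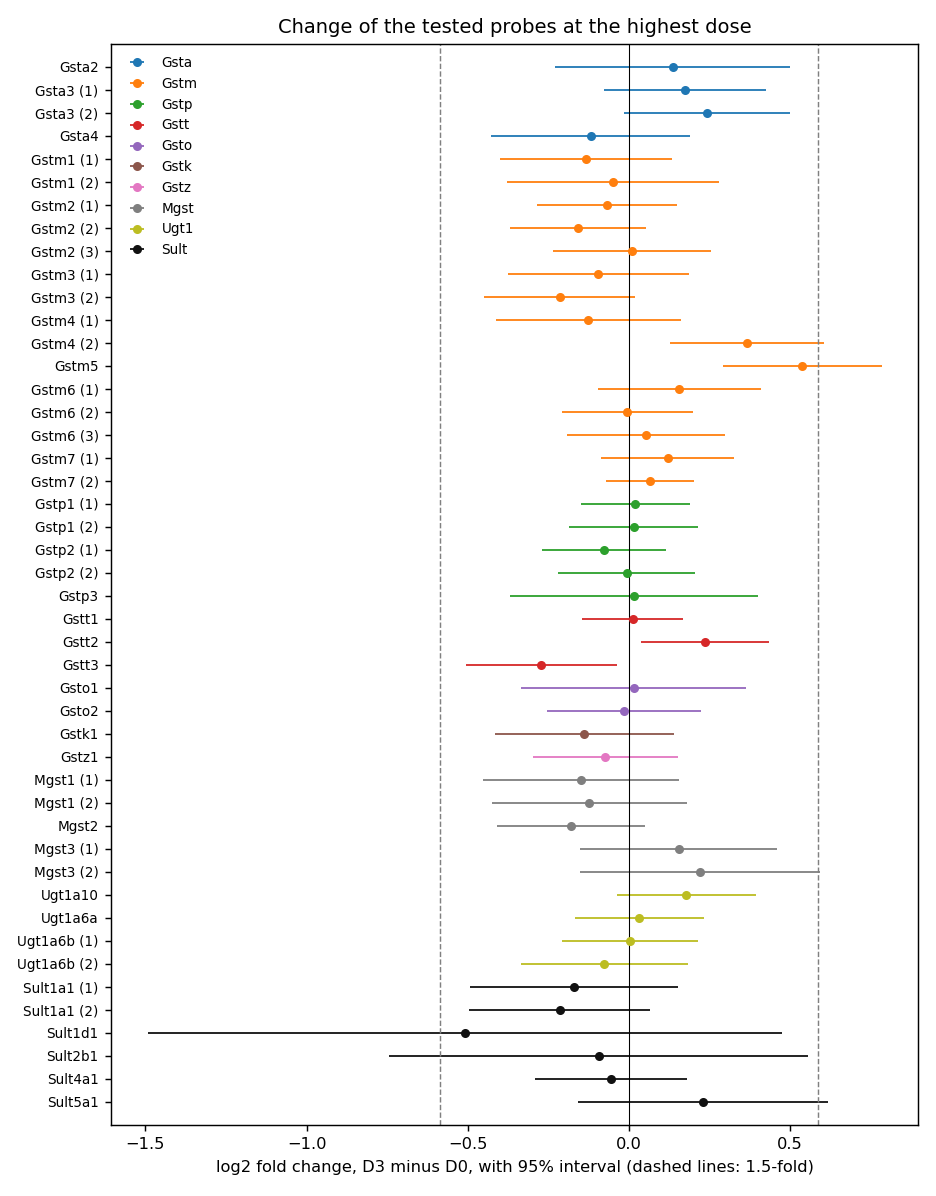
Log2 fold change at D3 against D0 (horizontal axis) for the 46 tested probes (vertical axis, numbered from the brightest where a gene has several), with limma's 95% intervals as bars and 1.5-fold marked by dashed lines. Gstm5 has the highest value at 0.54, Sult1d1 has the widest interval, and no family lies to 1 side as a block.

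Gstm5 (NM_010360), a mu-class transferase, was the member that changed most clearly. Its log2 ratios were -1.33, -1.46, -1.72, -1.62 and -1.53 in D0 and -1.07, -0.93, -1.18 and -1.13 in D1. They were -1.17, -1.09, -1.19, -1.64 and -1.37 in D2 and -1.01, -0.94, -1.28 and -0.74 in D3. Every D1 and every D3 mouse lay above every D0 mouse, while D2 overlapped with D0 through mice 29 and 30. Such a separation upwards was seen for 2 members (4.73% of all tested probes) at D1, 0 (2.51%) at D2 and 2 (7.47%) at D3, and downwards for 0 (4.19%), 0 (1.6%) and 1 (7.17%). The log2 fold change was 0.45 at D1 (95% interval 0.21 to 0.70, limma adjusted p = 0.0331) and 0.54 at D3 (0.29 to 0.78, limma adjusted p = 0.00552), a 1.45-fold difference that fell short of 1.5-fold. At D2 it was 0.24 (limma adjusted p = 0.322). Within the 3 slides the D3 difference was 0.42, 0.64 and 0.83, and the D1 difference 0.39, 0.49 and 0.40. The third slide held 1 array per group, and the second held 1 D1 array. Mouse 35 gave the D3 array of the third slide and 1 of the 2 on the second, so that these D3 values are not independent. By the adjusted p alone, Gstm5 was the only member of 46 to pass at D1 (4.73% of all probes did) and 1 of 2 at D3 (12.4% of all probes), and 0 passed at D2 (2.09%).

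The D3 value of Gstm5 sits close to the fold threshold. It passed 1.5-fold with the scanner software's processed signals (0.59), with both arrays of mouse 35 counted apart (0.59), without D0 mouse 1 (0.59) and without D3 mouse 34 (0.64). Median centring gave a change of 0.68 with a limma adjusted p of 0.478. Across 33 alternatives the change lay between 0.45 and 0.68 and the limma adjusted p between 0.000803 and 0.478. The D1 change lay between 0.38 and 0.70 with a limma adjusted p of 0.0141 to 0.488, so that its call by the adjusted p was lost under some of them.

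The other member past the adjusted p at D3 was a probe for Gstm4 (NM_026764), also of the mu class. By the dimmer of its 2 probes, the log2 ratios were 0.61, 0.86, 0.49, 0.87 and 0.64 in D0 and 0.91, 1.11, 0.91 and 1.31 in D3, with no overlap between the groups. The D3 change was 0.37 (95% interval 0.13 to 0.61, limma adjusted p = 0.041), the D1 change was 0.23 and the D2 change -0.05, neither past the test. The brighter probe gave the opposite sign, -0.13 (-0.41 to 0.16, limma adjusted p = 0.612), with D3 values of 1.17 to 1.68 against D0 values of 1.36 to 1.87. Over the alternatives the dimmer probe's D3 change lay between 0.26 and 0.42, with a limma adjusted p of 0.0152 to 0.847. The probes of Gstm4 thus disagreed, and no direction is given for the gene. The Gstm genes are closely related in sequence, and cross-hybridization between them was not tested.

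**Figure D4:**
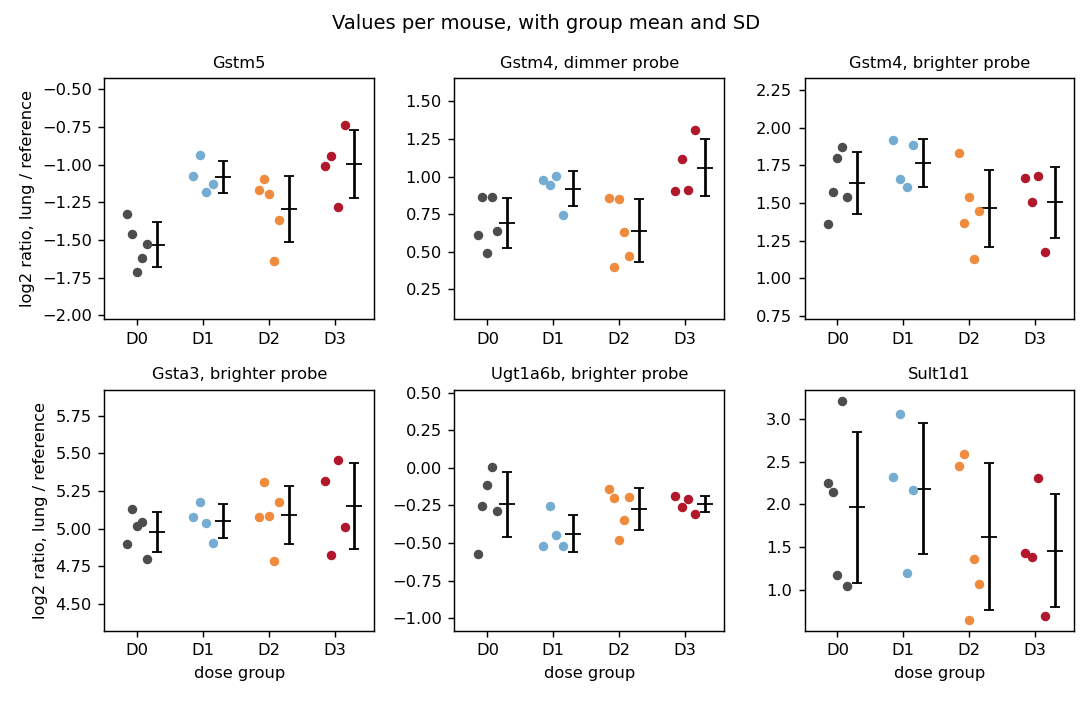
Log2 ratio of lung over reference (vertical axes, each panel on a scale of its own) by dose group (horizontal axes) for Gstm5, both probes of Gstm4, Gsta3, Ugt1a6b and Sult1d1, with a point per mouse and a bar for the group mean and SD. The D1 and D3 mice of Gstm5 lie above all D0 mice, whereas the groups overlap for Gsta3, Ugt1a6b and Sult1d1.

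The rest of the mu class moved less. Gstm7, by its brighter probe, lay at 0.67 to 0.86 in D1 above the 0.39 to 0.64 of D0 and overlapped with D0 in D2 (0.28 to 0.79) and D3 (0.54 to 0.84) (D1 change 0.24, limma adjusted p = 0.169). The dimmer Gstm3 probe lay at 0.02 to 0.22 in D3, just below D0, whose lowest mouse was also at 0.22 after rounding (change -0.21, limma adjusted p = 0.231). That probe was above background in 16 mice and its reference signal in none. Gstm1 (-0.13), Gstm2 (-0.07), Gstm3 by its brighter probe (-0.10) and Gstm6 (0.16) had limma adjusted p-values of 0.451 to 0.73 at D3. Over the 15 mu-class probes the median change was 0.13 at D1 with 13 positive, -0.05 at D2 with 5 positive and -0.005 at D3 with 7 positive.

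The promoter of Gstm5 is shown because it is the member that passed the adjusted p at 2 doses, and that of Gsta3 because alpha-class genes are the textbook case of the antioxidant response element (ARE), where NRF2 binds. The windows come from RefSeq (GRCm38.p6), run from 250 bases before to 50 after the gene's start, and were matched by symbol for 50 of the 58 genes, 27 of them tested. A pair of motifs was searched on both strands: the xenobiotic response element core GCGTG, where AHR binds, and an ARE core of TGACNNNGC. Capitals mark them, as CACGC where the match is on the other strand.
Gstm5, chr3:107895604-107895903, plus strand: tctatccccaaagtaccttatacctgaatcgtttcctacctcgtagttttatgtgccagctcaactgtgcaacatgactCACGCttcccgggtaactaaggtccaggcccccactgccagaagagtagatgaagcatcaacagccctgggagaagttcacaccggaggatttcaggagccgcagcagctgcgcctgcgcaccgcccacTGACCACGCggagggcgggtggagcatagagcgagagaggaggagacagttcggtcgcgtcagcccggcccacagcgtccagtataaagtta
Gsta3, chr1:21240335-21240634, plus strand: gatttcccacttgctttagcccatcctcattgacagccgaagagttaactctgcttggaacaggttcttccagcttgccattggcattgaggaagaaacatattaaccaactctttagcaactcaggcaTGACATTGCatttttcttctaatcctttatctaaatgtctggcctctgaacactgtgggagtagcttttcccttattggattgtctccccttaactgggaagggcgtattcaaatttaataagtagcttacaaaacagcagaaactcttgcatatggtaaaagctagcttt
The Gstm5 window holds 2 xenobiotic response cores and 1 ARE core, and the latter shares its last bases with the second of the xenobiotic cores. The Gsta3 window holds 1 ARE core and no xenobiotic core. At least 1 xenobiotic core was found in 32.4% of all promoter windows (35.2% of all genes) and in 9 of the 50 member genes, or 18% (Gsta2, Gstm1, Gstm5, Gstp1, Gstp3, Mgst3, Sult1d1, Sult2b1 and Sult1b1), and the ARE core in 12.4% of windows (14% of genes) and in 4 of 50, or 8.0% (Gsta3, Gstm5, Gstm7 and Mgst1). Among the 27 tested genes the shares were 29.6% and 14.8%. A match of these letters is a description and no evidence of binding. Gstm5 also differs in layout, since its window is on the plus strand of chromosome 3 and those of the other 6 mu-class genes beside it are on the minus strand.

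Of the alpha class, Gsta3 was the member with the largest D3 change. Its brighter probe read 5.32, 4.82, 5.46 and 5.01 in D3, which overlaps with the D0 range of 4.80 to 5.13 and reaches above it in mice 31 and 34. The change was 0.17 (95% interval -0.08 to 0.43, limma adjusted p = 0.39), and the dimmer probe gave 0.24 (-0.02 to 0.50, limma adjusted p = 0.224). Gsta2, an enzyme used as a marker of NRF2 activity in liver, changed by 0.14 and Gsta4, which conjugates the lipid peroxidation product 4-hydroxynonenal, by -0.12 at D3, with limma adjusted p-values of 0.683 and 0.668. All 4 alpha-class probes were positive at D1 and D2 and 3 were at D3.

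The pi class, whose human member detoxifies benzo[a]pyrene diol epoxide, held no call at any dose. Gstp1 (NM_013541) read -0.45, -0.36, -0.41, -0.37 and -0.35 in D0 and -0.21, -0.40, -0.47 and -0.39 in D3. The D3 change was 0.02 with a 95% interval of -0.15 to 0.19, which is within 1.14-fold on the higher side (limma adjusted p = 0.917). Gstp2 changed by -0.08 and Gstp3 by 0.02, and over the 5 probes the D3 changes lay between -0.08 and 0.02.

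The theta class held members on both sides. Gstt2 read 1.23, 1.19, 1.16, 1.58 and 1.58 in D0 and 1.62, 1.64, 1.48 and 1.60 in D3 (change 0.24, 95% interval 0.04 to 0.44, limma adjusted p = 0.114). Gstt3 read 1.27, 1.498, 1.45, 1.78 and 1.51 in D0 and 1.27, 1.24, 1.01 and 1.40 in D3 (change -0.27, -0.51 to -0.04, limma adjusted p = 0.125). Both intervals leave out 0 before adjustment and neither change passed over all probes. Gstt1 read 2.39 to 2.63 in D3 against 2.47 to 2.64 in D0, and its change was 0.01 (-0.15 to 0.17, limma adjusted p = 0.945).

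The remaining transferases of glutathione had D3 changes of -0.14 for Gstk1, -0.07 for Gstz1 (an enzyme of tyrosine breakdown) and 0.01 for Gsto1, with limma adjusted p-values of 0.556 to 0.972. Of the membrane-bound enzymes, Mgst1 changed by -0.15, Mgst2, which can make leukotriene C4, by -0.18, and Mgst3 by 0.15 and 0.22 by its 2 probes. None of the 5 Mgst probes passed the test at any dose.

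Glucuronidation was represented by the Ugt1 family alone. Its genes use alternative first exons that are joined to a common set of later exons, so that a probe in the common part would read all of them, and probe positions were not analysed here. Ugt1a6b (NM_201410), which like Ugt1a6a conjugates planar phenols and is a textbook AHR target, read -0.57, -0.25, -0.11, 0.004 and -0.29 in D0. It read -0.52, -0.26, -0.45 and -0.52 in D1, and -0.19, -0.26, -0.21 and -0.31 in D3, in both cases among the D0 values. The D3 change was 0.003 with a 95% interval of -0.21 to 0.22, which is within 1.16-fold on either side (limma adjusted p = 0.99). Ugt1a6a changed by 0.03 (limma adjusted p = 0.873). Ugt1a10, above background in 14 mice by 1 probe and in 1 by the other, changed by 0.18 at D3 (limma adjusted p = 0.289).

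Among the sulfotransferases, Sult1a1 was high in every mouse and read 5.17, 5.11, 5.21 and 4.88 in D3, a change of -0.17 from D0 (95% interval -0.49 to 0.15, limma adjusted p = 0.528). Sult5a1 changed by 0.23 (limma adjusted p = 0.469) and Sult4a1, a form found mainly in brain, by -0.06. Sult2b1, which sulfates cholesterol, varied by 0.53 within groups (SD), and its D3 change of -0.09 has a 95% interval of -0.74 to 0.56.

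Sult1d1 (NM_016771), which sulfates catecholamines and prostaglandins, differed more between mice of a group than between doses. It read 2.25, 2.15, 1.17, 3.21 and 1.04 in D0 and 2.32, 3.06, 1.19 and 2.16 in D1. In D2 it read 2.45, 2.59, 0.65, 1.36 and 1.06, and in D3 1.43, 1.39, 2.31 and 0.69. The highest and lowest mice lay 2.17 apart in D0 alone, and the within-group SD of 0.81 was above that of 99.7% of tested probes. The D3 change was -0.51 (95% interval -1.49 to 0.48, limma adjusted p = 0.54), so that the limits of the interval stood at 0.355 and 1.39 times the vehicle level. Its reference signal was above background in 1 mouse, and its second probe was not above background in lung.

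The level of Sult1d1 moved with that of secretory airway genes. Against the mean of 6 club cell markers, both taken as deviations from the group means over the 18 mice, Pearson's r was 0.85 and Spearman's rho 0.85 (permutation p = 2e-05 each over 100000 resamples, adjusted p = 0.00036 over 18 relations). Without the 2 mice farthest from the median marker level r was 0.79. Within slides it was 0.93 for the 8 mice of the first and 0.96 for the 7 of the second, and the third had 3. The relation rests on part of the list: r was 0.85 with Scgb3a1 and 0.81 with Bpifa1, both secreted proteins of the larger airways, but -0.17 with Scgb1a1 and 0.07 with Cyp2f2, the defining club cell genes, -0.08 with Cbr2 and 0.24 with Cckar. Sult1d1 also moved with the cardiac muscle list (r = 0.75, rho = 0.75, adjusted permutation p = 0.00144 and 0.00288) and the fat list (r = 0.74, rho = 0.79, adjusted permutation p = 0.00324 and 0.00135), whose levels differed widely between mice of D3 (0.71 to 4.29 and 1.41 to 3.63). The part of tissue composition in the Sult1d1 values was not tested further. For Sult2b1 none of 9 such relations passed (lowest adjusted permutation p = 0.109). These genes were chosen for this comparison because of their spread.

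**Figure D5:**
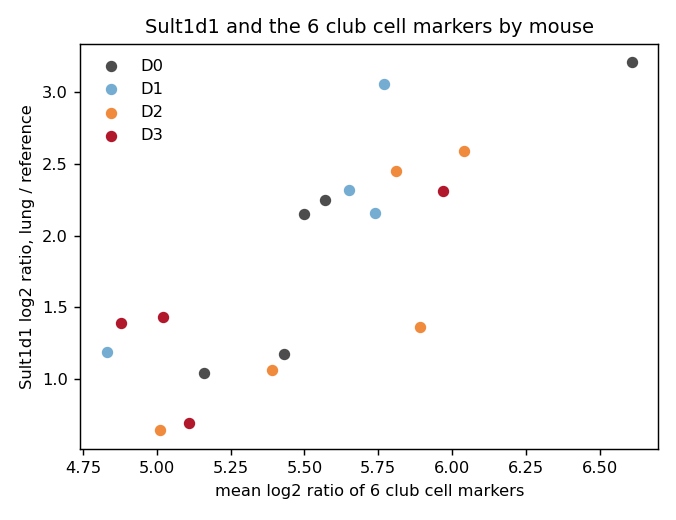
Log2 ratio of Sult1d1 (vertical axis) against the mean log2 ratio of 6 club cell markers (horizontal axis) in the 18 mice, coloured by dose group. The mice run from low to high on both axes, from 0.65 for Sult1d1 in a D2 mouse to 3.21 in a D0 mouse, and the dose groups are mixed along the way.

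No member was called between doses. By limma, 0 of 46 were called for D2 against D1 (0% of all probes), 0 for D3 against D2 (0.106%) and 0 for D3 against D1 (0.145%), with 6, 4 and 1 at an unadjusted p under 0.05 (9.82%, 11.7% and 7.68% of all probes). A linear trend over dose called 0 members (1.53% of all probes), with 3 at an unadjusted p under 0.05 (22.1%). Gstm5 had the largest rising trend, at 0.44 from D0 to D3 (limma adjusted p = 0.0518).

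The genes that supply and clear these enzymes were read from 7 lists, and 49 of their 56 genes had a tested probe. By the brightest probe of each, 1, 1 and 2 genes were called at D1, D2 and D3. Of all tested probes 1.06%, 0.626% and 2.43% were called, so that 0 calls in a list this short is near that share. Glutathione supply (12 of 13 genes tested) held no call at any dose, with a median change of 0.17 over its genes at D3. Its largest changes were those of Gclm, the regulatory subunit of the rate-limiting enzyme of glutathione synthesis, at 0.32 (limma adjusted p = 0.157), and of Dpep1, which cleaves cysteinyl-glycine, at 0.27 (limma adjusted p = 0.208). Slc7a11, the cystine carrier, was not above background in any mouse. Supply of UDP-glucuronate (4 of 4 tested) and of the sulfate donor PAPS (5 of 6 tested) held no call either. The largest D3 changes there were -0.31 for the transporter Slc35d1 and 0.14 for Slc35d2, and 0.18 for the PAPS synthase Papss1 and 0.10 for Bpnt1 (limma adjusted p-values of 0.216 to 0.566).

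By the brightest probe of each gene, export held 1 call among 8 tested genes of 10. Abcb1b (NM_011075), a drug efflux pump, read -1.99, -2.28, -2.29, -2.53 and -2.31 in D0 and -1.55, -1.46, -1.77 and -1.42 in D3. All D3 mice lay above all D0 mice, as they did for 7.47% of all tested probes. The change was 0.73 (limma adjusted p = 0.00026), whereas 0.17 and 0.24 at D1 and D2 did not pass. Abcc3, which exports glucuronides and glutathione conjugates, lay lower in D3 (1.04 to 1.14) than in D0 (1.42 to 1.99), with a change of -0.58 that passed the adjusted p (limma adjusted p = 0.00107) just short of 1.5-fold. Such a separation downwards was seen for 7.17% of all tested probes. The probes of Abcc5, a nucleotide and conjugate exporter, disagreed at D3: the brightest changed by -0.08 (limma adjusted p = 0.566), a second was called lower at -0.60 (limma adjusted p = 0.0115) and another was at 0.36 (limma adjusted p = 0.023), so that no direction is given for the gene.

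Among the other conjugating enzymes (6 of 8 tested, 0 called), Nnmt, which methylates nicotinamide, changed by 0.23 at D3 (limma adjusted p = 0.175). Of the enzymes that hydrolyse conjugates (4 of 5 tested, 0 called), the beta-glucuronidase Gusb changed by 0.44 (limma adjusted p = 0.0199) and Arsb by -0.05. Of 10 regulators, all tested, Ahrr, the repressor induced by AHR, was called at each dose with changes of 1.504, 1.79 and 1.84 (limma adjusted p = 1.99e-05, 7.41e-07 and 2.83e-07), although only 1 of 5 D0 mice had it well above background, so that the size of these changes is uncertain. Mafg, a partner of NRF2, changed by -0.33 at D3 (limma adjusted p = 0.0108) without reaching 1.5-fold. Its dimmer probes changed by -0.21 and -0.13 (limma adjusted p = 0.107 and 0.63). No regulator other than Ahrr was called. Over all 7 lists the median changes were 0.004, 0.013 and 0.045 at D1, D2 and D3.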

How the data were processed

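The authors hybridized each lung RNA (Cy5, red) with universal mouse reference RNA (Cy3, green). In the deposited scanner files, each spot has a median intensity in both colours, not normalized, and an intensity that the software had corrected for background and dye (Feature Extraction 11.0.1.1 and scanner G2505C, per the file headers, which differ from the study's methods and were followed). The authors also deposited a table of log2 ratios normalized by LOWESS. Its correlation with the ratios computed here was 0.995 to 0.998 per array.

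Following the study's methods, no background was subtracted from the median signals, and loess (span 0.3) was applied within arrays. Control spots (3671 of 62976) and flagged spots (171 to 323 per array) were left out, spots of a probe were averaged, and 80 probes with a missing value were dropped. Symbols came from matching 21465 of 22765 RefSeq accessions to a gene table of assembly GRCm38.p6, and no coordinates other than those of the printed promoters are given, since the headers name mm9. The gene table holds 70 genes of these families.

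The 31004 probes left by the filter were fitted with limma 3.58.1 in R 4.3.3 (lmFit, eBayes, Benjamini-Hochberg) in 1 model over 4 groups. The MAANOVA test of the study's methods was not installed. The fit was tested on simulated data. The number of arrays limits the precision. A gene stands for its probe with the brightest red signal unless another is named. Named genes are members called anywhere, the largest D3 change of each family and fixed genes, plus, from the lists, called genes and the 2 largest D3 changes, of which 1 is not reported here. Members past the adjusted p alone, or whose groups did not overlap, were named after their values were seen. Members and lists were chosen with earlier results of these data known. Alternatives changed the signal, background, normalization, channel, filter, slide and slide row as blocks, samples in the fit, call rule, mouse 23 and mouse 35, and left out each mouse. Promoter windows were read with Python 3.11.15.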

Additional observations from a re-analysis of the deposited data

Results flagged for a closer look

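In 6 of 128 groups of 4 or 5 mice, from the brightest tested probe of each of the 31 genes and the dimmer Gstm4 probe, a single mouse stood apart from the rest of its group by more than Dixon's 95% critical value. Chance alone gives about 1 in 20. The values are log2 ratios of lung over reference. Gstm2 was 2.26 in mouse 23 of D2 (the nearest mouse 2.04), the mouse whose number falls among D1. Gsto1 was 0.27 in mouse 34 of D3 (nearest -0.23), and Gstp2 was 0.46 in mouse 24 of D1 (nearest 0.27). Mgst3 was 0.42 in mouse 35 of D3 (nearest 0.80), the mouse with a pair of arrays, and Sult4a1 was 0.06 in mouse 32 of D3 (nearest 0.21). Ugt1a6a was -0.54 in mouse 25 of D1 (nearest -0.19), by a probe above background in 17 mice. No mouse was set apart in more than 1 gene, and none of these genes was called at any dose.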

How the results depend on the processing

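The counts of called members were 0 in all 7 comparisons. For D2 against D0, for the comparisons between doses and for the trend, they were 0 under every alternative run. With the adjusted p alone, 1 member passed at D1 (Gstm5) and 2 at D3 (Gstm5 and a Gstm4 probe). At D3, 1 member (Gstm5) was called with the scanner software's processed signals and 1 with both arrays of mouse 35 as separate samples. Leaving out each mouse in turn gave 0 to 1 called members at D3 (1 without D0 mouse 1, and 1 without D3 mouse 34) and 0 in the other comparisons. Of 96 changes of single probes under 33 settings (3162 comparisons), 7 newly passed the rule, all of Gstm5 or Gstm4, none lost a call (0, there being none to lose) and 159 that were not called changed sign. Median centring brought the median of all probes to 0.17, 0.12 and 0.06 at D1, D2 and D3, from 0.007, -0.004 and -0.002. No paired analysis was possible because mice of different groups share no number. Slide as a block, and slide row as a block (chosen after seeing the data), changed no call of a member. The planned normexp on mean signals could not be run on the columns at hand, and normexp on median signals, an alternative chosen after seeing the data, took its place. Genes near background, above all Ugt2, Ugt3 and most Sult, could not be compared, and the probes of a family may cross-hybridize, which was not tested.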

Other observations

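The 2 arrays of D3 mouse 35 lay on different slides and differed by a median of 0.113 (log2 ratio, absolute) over all tested probes, against 0.116 to 0.195 for pairs of different mice of a group. Over the 46 members the value was 0.106, against 0.121 to 0.399 for pairs of mice. The median within-group SD of the members was 0.183, against 0.154 over all tested probes. For Ugt2b34 the D0 ratio was -1.02 ± 0.31 (SD, n = 5) with the lung signal not above background in any D0 mouse, so that the ratio is an upper bound. The reference RNA was likewise above background in all 18 mice for Sult1c2, which was detected in 10 lungs.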
